A study of Mus musculus with 7 samples.

Results

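Major urinary proteins (Mup) are small secreted lipocalins, barrel-shaped carriers of volatile ligands, and the genes examined here are the 6 family members Mup1, Mup3, Mup4, Mup5, Mup19 and Mup20, out of 21154 named genes on the array. A probe was assigned to them where its RefSeq accession belongs to one of these symbols, which gave 8 probes, 2 each for Mup4 and Mup20 and 1 for each of the others. The genes were chosen by the measured signals of these same arrays, from earlier results of the comparison, so their differences are described without a test. Every one of the 8 probes had its highest signal on a control array, and on the probe used for each gene the cΔex3 arrays were lower by 37.9-fold (Mup19) to 538-fold (Mup5) on average.

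The study compared dermal sheath cells, the mesenchymal layer that wraps the hair follicle, with and without activation of β-catenin, through which Wnt signals reach their target genes. By their labels, the cells came from dorsal skin of mice at postnatal day 15 and were sorted by flow cytometry in both groups, keeping cells that carried a YFP reporter and lacked integrin α8, CD34 and alkaline phosphatase. The cΔex3 group, labelled as β-catenin activation, had 4 arrays from 6 mice, with 1 mouse on arrays 1 and 4 and 2 pooled mice on arrays 2 and 3. The control group had 3 arrays from 4 mice, with 1 mouse on arrays 1 and 2 and 2 pooled mice on array 3. The labels used here give neither the recombinase and its promoter, nor the genotype or strain of the control mice, nor the sex of any mouse.

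In the adult mouse, hepatocytes, the main cells of the liver, make most of the Mup protein and release it into the blood, from where it passes into urine as a carrier of pheromones. Transcription in liver depends on growth hormone, glucocorticoid and thyroid hormone, increases towards puberty and is higher in males. Some family members are instead known from lacrimal, salivary and nasal glands. The genes stand in 1 cluster that arose by repeated duplication, so that a probe for one gene may bind the transcript of another. Probe sequences were not used here, and which transcripts each probe can bind was not tested.

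How alike the promoters of the family are can be read from their sequences. Promoter sequences were found for 3 of the 6 genes, Mup4, Mup19 and Mup3, from 250 bases before to 50 bases after the annotated start (RefSeq, build GRCm38.p6, minus strand of chromosome 4). They lie at chr4:59960618-59960917 for Mup4, chr4:61782175-61782474 for Mup19 and chr4:62087268-62087567 for Mup3, and are shown 5′ to 3′ along the gene to let the shared blocks be compared. Capitals mark the longest run that all 3 hold, 20 bases.
Mup4: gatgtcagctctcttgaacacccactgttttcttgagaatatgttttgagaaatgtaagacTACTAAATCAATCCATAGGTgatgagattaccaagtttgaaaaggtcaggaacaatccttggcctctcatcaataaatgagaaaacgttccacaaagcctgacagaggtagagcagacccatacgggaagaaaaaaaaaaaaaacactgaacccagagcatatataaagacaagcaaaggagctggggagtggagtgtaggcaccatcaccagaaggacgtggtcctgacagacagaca
Mup19: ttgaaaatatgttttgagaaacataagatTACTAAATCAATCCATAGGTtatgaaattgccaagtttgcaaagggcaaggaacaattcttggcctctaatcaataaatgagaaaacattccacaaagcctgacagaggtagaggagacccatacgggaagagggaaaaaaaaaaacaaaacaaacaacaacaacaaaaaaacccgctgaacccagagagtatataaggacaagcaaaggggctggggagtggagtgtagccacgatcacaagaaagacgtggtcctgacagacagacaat
Mup3: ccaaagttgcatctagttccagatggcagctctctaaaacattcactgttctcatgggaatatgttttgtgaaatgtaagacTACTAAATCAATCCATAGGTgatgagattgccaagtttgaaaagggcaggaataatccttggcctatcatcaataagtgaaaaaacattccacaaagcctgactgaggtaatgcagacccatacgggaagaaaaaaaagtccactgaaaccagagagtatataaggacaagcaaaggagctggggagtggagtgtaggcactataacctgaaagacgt
Counted from the annotated start, the run begins at −189 in Mup4, at −221 in Mup19 and at −168 in Mup3. Of 32851 promoters in the same table, 12 hold it, and all 12 are among the 14 Mup promoters there. Aligned bases were identical at 91.8% between Mup4 and Mup19, 89.2% between Mup4 and Mup3 and 87.4% between Mup19 and Mup3. Over the 91 pairs of the 14 Mup promoters, identity lay between 83.3% and 100%, with a median of 93.4%. Most of each window lies before the start, so these values do not give the likeness of the transcripts.

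**Figure D1:**
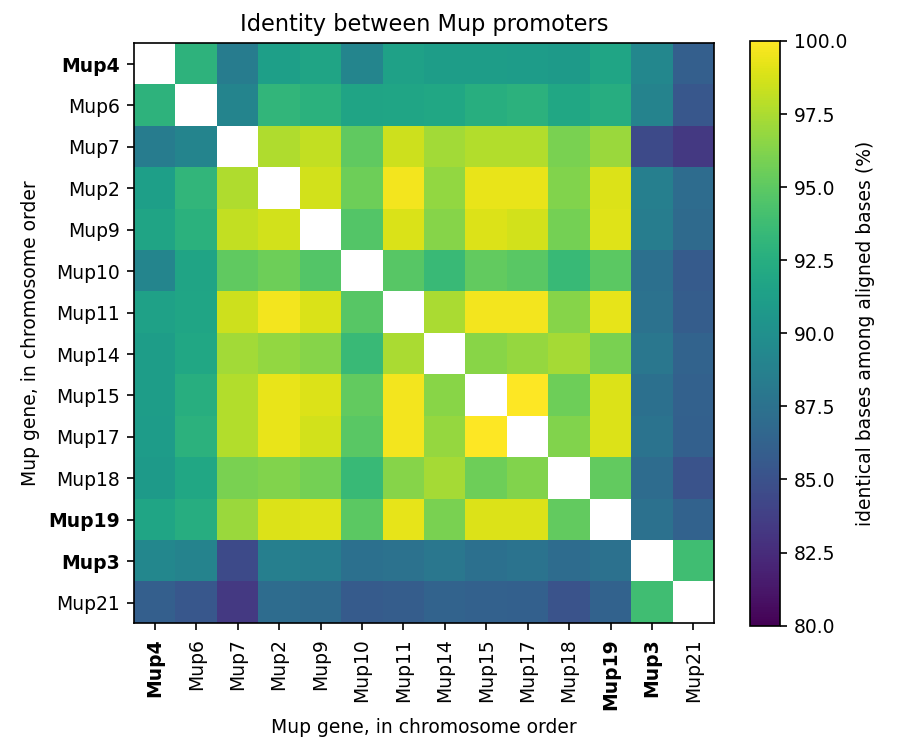
Identity between the promoters of 14 Mup genes, in chromosome order on both axes, as the percent of identical bases among aligned bases, with Mup4, Mup19 and Mup3 in bold. Identity runs from 83.3% to 100%, and the Mup3 and Mup21 promoters stand apart from the rest of the family.

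Motifs were looked for in these windows on both strands. TATATAA, a form of the TATA box chosen after the sequences had been viewed, occurs in 13 of the 14 Mup promoters and in 3.24% of all promoters. It spans −29 to −23 in Mup4, −31 to −25 in Mup19 and −11 to −5 in Mup3. The textbook form TATAAA, which overlaps it at 1 place in Mup4 and Mup6, occurs in 2 of the 14 and in 13.6% of all promoters. TTCNNNGAA, bound by STAT5, which carries the growth hormone signal, has a match in 0 of the 14 Mup promoters and in 8.30% of all promoters. TTGCNNAA for C/EBP factors and TGTTTAC for FOXA factors also match 0 of the 14, against 10.8% and 3.65% of all promoters, and the HNF1 site matches 0 of the 14 and 0.009% of all. An absent match says only that these letters are not in the window.

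Across the 7 arrays, the processed signal at the array's 75th percentile was 1348 to 2160 on cΔex3 arrays and 756 to 907 on control arrays. Probes well above background made up 69.0% to 82.7% on cΔex3 arrays and 69.3% to 71.5% on control arrays, and 0 spots were saturated. On control arrays the raw median signal reached 83.2% to 85.5% of the saturation value for Mup1 and 82.2% to 84.4% for Mup19. It reached 76.1% to 81.1% for the brighter Mup20 probe and 61.3% to 65.1% for Mup5. Whether signals this bright narrow the folds was not tested. Marker levels did not match dermal sheath alone in either group. On control arrays Alb, a hepatocyte marker, had log2 levels of 9.54 to 9.92. On cΔex3 arrays Alb stood at −0.76 to 2.44. Adipoq, an adipocyte marker, stood at 6.53 to 8.08 on cΔex3 arrays and −5.12 to −1.95 on control arrays. Summed over the 20 genes of a hepatocyte list, the log2 level was 7.28 to 7.99 on cΔex3 arrays and 12.8 to 13.2 on control arrays. On cΔex3 arrays most of that sum was Hp, haptoglobin, at 6.71 to 7.79. The median gene of the list stood at −1.75 to 0.84 on cΔex3 arrays and 8.59 to 9.07 on control arrays. Acta2, the smooth muscle actin that marks the dermal sheath, was well above background on all arrays, with log2 levels of 4.55 to 5.36 on cΔex3 arrays and −0.69 to 0.59 on control arrays. The median gene of a dermal sheath and fibroblast list stood at 4.11 to 4.58 on cΔex3 arrays and −0.19 to 0.65 on control arrays. Dcn, the list's highest gene on control arrays, stood at 7.30 to 7.97 on cΔex3 arrays and 6.78 to 6.96 on control arrays. Groups are therefore named by their labels. Levels below are log2 ratios of the processed signal to that percentile of the same array, and differences are cΔex3 minus control. In bulk RNA, fewer cells of a type and less RNA per cell cannot be told apart.

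Mup1 and Mup19 belong to the abundant urinary group of the family. For Mup1, the processed signal, rounded to 5 digits, was 2073.8, 28244, 24864 and 59469 on cΔex3 arrays 1 to 4, and 596230, 642990 and 649470 on control arrays 1 to 3. The groups did not overlap, and cΔex3 array 1 was well below the other cΔex3 arrays. In log2 level, Mup1 stood at 3.31 ± 2.13 on cΔex3 arrays (SD, n = 4) and 9.61 ± 0.12 on control arrays (SD, n = 3), a difference of −6.30, or 78.8-fold lower. Mup19 had signals of 4958.4, 50337, 51145 and 126220 on cΔex3 arrays, against 623490, 625930 and 634240 on control arrays. Its difference was −5.24 (37.9-fold lower), from 4.36 ± 2.00 on cΔex3 arrays (SD, n = 4) and 9.61 ± 0.14 on control arrays (SD, n = 3). The control signals of both probes lay close together while the cΔex3 signals spread over 24.7-fold for Mup1 and 21.9-fold for Mup19, after scaling.

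Mup20 encodes darcin, the male pheromone by which female mice learn a male's scent, and was read by 2 probes. On the brighter, signals were 1322.8, 16216, 8259.2 and 13103 on cΔex3 arrays, against 657070, 588220 and 594770 on control arrays. On the other they were 691.41, 10897, 8094.0 and 21258 on cΔex3 arrays, against 430140, 395890 and 429520 on control arrays. The probes gave differences of −7.57 (190-fold lower) and −7.23 (150-fold lower), but did not order the cΔex3 arrays alike: the highest was array 2 on the brighter probe and array 4 on the other. Mup3 had signals of 429.70, 4291.6, 3686.7 and 8987.7 on cΔex3 arrays, against 394770, 354910 and 330140 on control arrays. Its log2 level was 0.69 ± 1.91 on cΔex3 arrays (SD, n = 4) and 8.80 ± 0.26 on control arrays (SD, n = 3), a difference of −8.11 (276-fold lower).

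Mup4 and Mup5 are the members of the set known from lacrimal and salivary glands. Mup5 had signals of 256.34, 3130.6, 2453.8 and 6990.2 on cΔex3 arrays, against 535320, 462060 and 454790 on control arrays. It had the largest difference of the probes used for the 6 genes, −9.07 (538-fold lower), from 0.15 ± 2.06 on cΔex3 arrays (SD, n = 4) and 9.23 ± 0.24 on control arrays (SD, n = 3). For Mup4, 2 probes with the same accession disagreed on the cΔex3 arrays. The brighter probe read 1774.9, 15963, 14693 and 40369 on cΔex3 arrays, against 327430, 333780 and 335440 on control arrays, a difference of −5.97 (62.7-fold lower). The other read 3.01, 5.44, 5.62 and 3.39 on cΔex3 arrays, not well above background on any of the 4, against 8084.1, 6943.1 and 8088.2 on control arrays, where it was above background on 3 of 3. That probe was at least 867-fold lower, its control mean being set against the lowest signal well above background on each cΔex3 array. A gene's probe with the highest mean is used below, so Mup4 stands at −5.97.

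**Figure D2:**
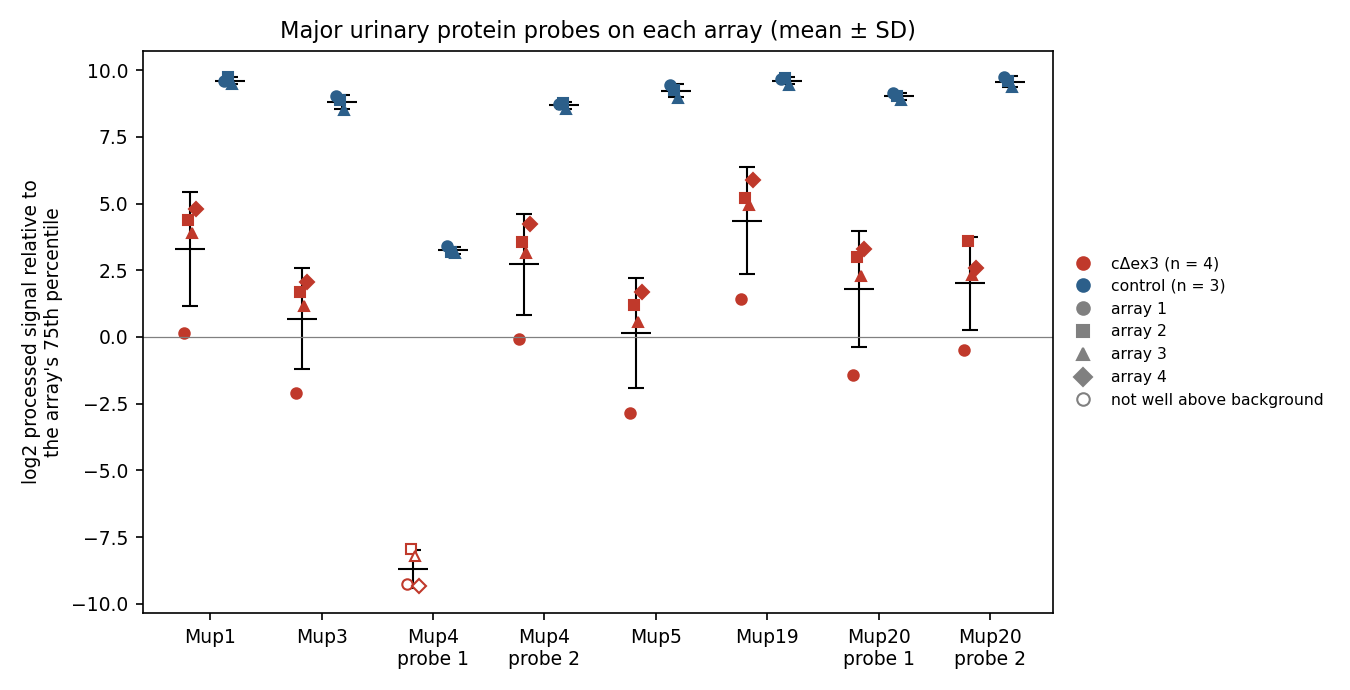
Log2 processed signal for the 8 probes of the 6 Mup genes, each array scaled to its 75th percentile, with cΔex3 arrays left of control arrays for each probe, horizontal bars for the mean and whiskers for the SD; probes differ in brightness, so only the groups of 1 probe are to be compared. The control arrays lie within 1.18-fold to 1.42-fold of each other per probe, cΔex3 array 1 is the lowest of its group on 7 of 8 probes, and open symbols mark Mup4 probe 1, not above background on cΔex3 arrays.

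Control and cΔex3 arrays did not overlap for 8 of 8 probes, all lower on cΔex3 arrays, in a comparison where 32.6% of the 18032 genes tested did not overlap in that direction. The median difference of the 6 genes was −6.93, beside −0.08 for all genes tested. Without cΔex3 array 1 the median was −5.99, and with quantile normalisation, with normexp and quantile normalisation and in the authors' deposited log2 table it was −5.95, −5.96 and −5.92. The arrays stood in 2 rows of 1 slide, and cΔex3 array 1 was the only cΔex3 array in row 1. Within row 1 (cΔex3 array 1, control arrays 1 and 2) the median was −9.84, and within row 2 (cΔex3 arrays 2 to 4, control array 3) it was −5.82.

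The cΔex3 arrays differed more among themselves than the control arrays in every one of the 6 genes. After scaling, the highest cΔex3 array exceeded the lowest by 16.9-fold to 24.7-fold, against 1.18-fold to 1.42-fold among control arrays. Array 1 was the lowest for 6 of 6 genes and array 4 the highest for 5 of 6, the exception being Mup20. Relative to the control mean, the median of the 6 genes was −9.76, −5.60, −6.48 and −5.78 on cΔex3 arrays 1 to 4. For the 5 genes other than Mup20, the extremes were both arrays of 1 mouse, with the pooled arrays 2 and 3 between them. Restricted to arrays of 1 mouse, the median difference was −7.91. Among all genes tested, 20.4% had array 1 lowest, 29.0% had array 4 highest and 8.54% had both, and the median spread across cΔex3 arrays was 1.85-fold.

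The same arrays were ordered in much the same way by hepatocyte genes. Array 1 was lowest for 17 of 20 hepatocyte genes (20.4% of all genes) and array 4 highest for 13 (29.0%), and both held for 13 (8.54%). The median of the 20 relative to control was −10.32, −8.27, −8.76 and −7.94 on cΔex3 arrays 1 to 4. Adipocyte genes did not follow this order, with array 4 having the lowest median, at 5.97, 6.77, 6.75 and 5.33 above the control mean. Whether the hepatocyte transcripts account for the spread of the Mup genes was not tested.

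**Figure D3:**
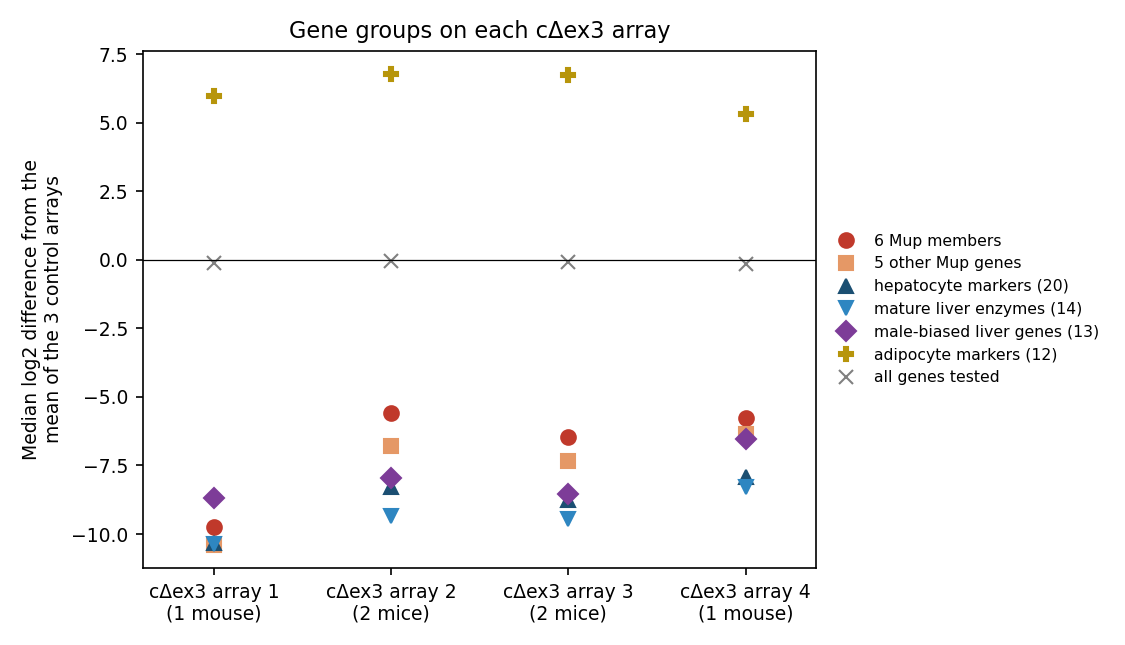
Median log2 difference of each gene group from the mean of the 3 control arrays, on each of the 4 cΔex3 arrays, with the number of mice pooled on each. The 6 Mup genes are at −9.76 on array 1 and between −6.48 and −5.60 on arrays 2 to 4, hepatocyte, mature liver and male-biased genes are also lowest on array 1, and all genes tested stay near 0.

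The RefSeq table lists 22 Mup genes on chromosome 4, from Mup4 at one end to Mup21 at the other, and 0 other genes with a tested probe lie between them. Beside the 6 genes described, 5 others were on the array by accession, Mup2, Mup6, Mup17, Mup18 and Mup21, each with 1 probe. All 5 were lower on cΔex3 arrays without overlap, as were 32.6% of all genes tested. The differences were −7.72 for Mup2, −9.59 for Mup6, −5.43 for Mup17, −5.21 for Mup18 and −9.64 for Mup21. They also had cΔex3 array 1 lowest and array 4 highest in 5 of 5, against 8.54% of all genes tested. Over all 11 genes and 13 probes the median was −7.57.

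The nearest genes outside the cluster went either way. Of the 5 nearest genes with a tested probe on each side, 3 were higher on cΔex3 arrays, 2 lower and 5 not past the threshold (limma, adjusted p under 0.05), where 24% of all genes tested were higher and 29% lower. Zfp37, a zinc finger gene and the nearest beyond Mup21, was higher by 1.97 ± 0.24 (SE; limma, adjusted p = 0.000632), with levels of −3.06 on cΔex3 arrays and −5.02 on control arrays. With normexp background correction the Zfp37 difference was 0.51 after the 75th percentile (limma, adjusted p = 0.0335) and 0.99 after quantile normalisation. Slc46a2, a solute carrier and the nearest before Mup4, differed by 3.67 ± 2.09 (SE; limma, adjusted p = 0.178), and 1 of 3 control arrays had it above background. Its cΔex3 level was 4.37 on array 4 and −4.35 to −3.24 on the others, and without array 4 it differed by 1.61 (limma, adjusted p = 0.0124).

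Genes whose 7-array profile was closest to the mean profile of the 6 Mup genes were sought by the root mean square of the log2 differences after centring each gene, a measure that includes the difference between the groups and the spread among the cΔex3 arrays. The closest 8 outside the family, over 7 arrays, were Fabp1, Serpina1a, Serpina1c, Serpina1e, Ahsg, Alb, Fitm1 and Pzp, at 0.40, 0.51, 0.52, 0.52, 0.58, 0.69, 0.73 and 0.80. Fabp1 encodes the liver fatty acid binding protein, the Serpina1 genes encode α1-antitrypsin, and Ahsg, Alb and Pzp encode the plasma proteins fetuin-A, albumin and pregnancy zone protein. Fabp1 had levels of −0.95, 2.95, 1.74 and 2.56 on cΔex3 arrays and 9.43, 9.31 and 9.06 on control arrays. How the cΔex3 arrays rank in these 8 genes was part of the choice and is not a result.

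All 20 hepatocyte markers fell (limma, adjusted p under 0.05, against 29% of all genes), with a median of −8.53. Alb, albumin, fell by 8.30 on the log2 scale, Apoa2, an apolipoprotein of high density lipoprotein, by 6.31, Fgg, the fibrinogen γ chain, by 9.03 and Kng1, kininogen, by 8.48. Hp, haptoglobin, stood apart at −1.62 ± 0.30 (SE; limma, adjusted p = 0.0036), with 7.49 on cΔex3 arrays and 9.11 on control arrays, and with quantile normalisation it differed by −0.40 (limma, adjusted p = 0.303). In the other direction, 12 of 12 adipocyte markers were higher on cΔex3 arrays (24% of all genes were), with a median of 6.23, and Adipoq, adiponectin, was higher by 11.43. Of 12 dermal sheath and fibroblast markers 11 were higher and 1 was not past the threshold, with Acta2 higher by 5.20. Dermal papilla markers gave 2 higher, 1 lower and 4 not past the threshold of 7 tested, and keratinocyte markers 1 higher and 4 not past it of 5. The part of these cell types in the Mup differences was not tested.

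**Figure D4:**
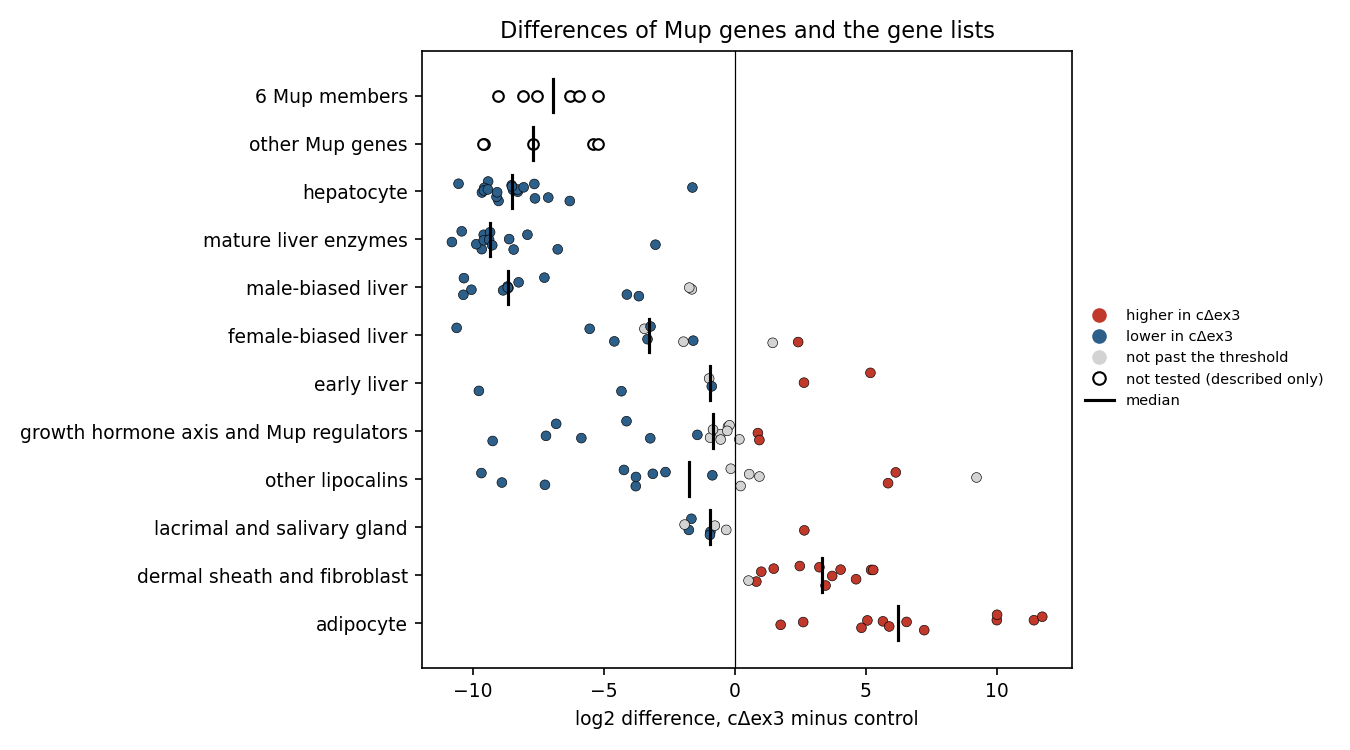
Log2 difference, cΔex3 minus control, of each Mup gene and of each tested gene in the lists, coloured by the call (limma, adjusted p under 0.05), with black bars at the medians; Mup genes are open because they were not tested. The 6 Mup genes lie between −9.07 and −5.24, hepatocyte and mature liver genes lie to the left of 0, adipocyte genes to the right, and the growth hormone axis has genes on either side.

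Because the labelled age precedes puberty, genes of the liver's developmental stage were set beside the Mup genes. Of 14 enzymes of mature liver, 14 fell on cΔex3 arrays (29% of all genes did), with a median of −9.37. All 14 were above background on every control array, but only 11 on every cΔex3 array and 2 on none. Those 2 entered the test through the control arrays alone, so the count and the median partly reflect the filter. Uox, urate oxidase, had levels of 0.04 ± 0.84 on cΔex3 arrays (SD, n = 4) and 8.50 ± 0.42 on control arrays (SD, n = 3). Akr1c6, a hydroxysteroid dehydrogenase, fell by 9.60, and Cyp2f2, Cyp3a11 and Cyp2c50, cytochrome P450 enzymes of adult liver, differed by −8.63, −9.67 and −9.88. Cyp2e1, the ethanol-oxidising cytochrome P450, differed by −3.04 (limma, adjusted p = 0.0175), and by −2.96 without control array 1 (adjusted p = 0.0573) and −3.02 without control array 2 (adjusted p = 0.0543); with quantile normalisation it differed by −1.77 (adjusted p = 0.158).

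Genes known from fetal or neonatal liver did not share one direction. Of 6 tested, 2 were higher on cΔex3 arrays (24% of all genes were), 3 lower (29%) and 1 not past the threshold. The median was −0.94. Afp, α-fetoprotein, the main plasma protein of fetal liver, had levels of −4.56, −4.33, −5.08 and −3.35 on cΔex3 arrays and 0.72, −1.06 and 0.36 on control arrays, a difference of −4.34 (SE 0.54; limma, adjusted p = 0.000731). It was well above background on all 7 arrays. Cyp3a16, a cytochrome P450 of young liver, had levels of −6.32 to −2.23 on cΔex3 arrays and 4.78 to 6.33 on control arrays, a difference of −9.78. Gpc3, a glypican also made by mesenchyme, was higher by 5.18, and Cd24a, a surface protein of immature and epithelial cells, by 2.64, the call for Cd24a being lost without control array 1 (2.48; limma, adjusted p = 0.0542) or 2 (2.35; adjusted p = 0.0571). Igf2, a fetal growth factor, differed by −0.88, by −0.75 without control array 1 (limma, adjusted p = 0.0508) and by −0.51 with normexp and quantile normalisation. Dlk1, a surface protein of hepatoblasts and preadipocytes, differed by −0.99 (limma, adjusted p = 0.530), and by −2.64 without control array 2 (adjusted p = 0.0109). The control arrays thus held Mup, mature enzyme, Afp and Cyp3a16 transcripts together. The study has no array of another age or of liver, and levels of different probes cannot be set against each other, so no stage is assigned from them.

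Sex-biased liver genes bear on the Mup genes because the family is higher in adult males. Transcripts of Ddx3y, Uty and Eif2s3y, genes of the Y chromosome, were well above background on all 7 arrays, and Kdm5d was on 6 of 7. Xist, which the inactive X chromosome transcribes, was above background on cΔex3 arrays 1 and 4 with one of its 2 probes and on control array 2 with the other. Those Xist levels were low, at −6.39, −6.30 and −5.41. The first probe read −6.90 to −5.96 on arrays where it was not above background. Levels over the 7 arrays were 1.60 to 2.47 for Ddx3y, 1.71 to 3.72 for Eif2s3y and −4.31 to −2.23 for Uty. Tested were 13 genes known to be higher in male liver, with a median of −8.66. Of these, 11 fell on cΔex3 arrays (29% of all genes did) and 2 did not pass the threshold. Hsd3b5, a male-specific steroid dehydrogenase, had levels of −6.92, −4.49, −4.38 and −2.68 on cΔex3 arrays and 6.11, 6.40 and 4.70 on control arrays, a difference of −10.36. Differences were −8.66 for Cyp4a12b, an arachidonic acid hydroxylase, −7.28 for Cyp7b1, an oxysterol hydroxylase, −8.69 for Cyp2d9, a testosterone hydroxylase, −10.07 for Ugt2b38, a glucuronosyltransferase, and −3.67 for Gstp1, a glutathione transferase. cΔex3 array 1 was lowest for 8 of the 13 (20.4% of all genes) and array 4 highest for 10 (29.0%). Both held for 7 of the 13 (8.54% of all genes).

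Of genes known to be higher in female liver 10 were tested, with a median of −3.28. Among the 10, 6 fell (29% of all genes did), 1 was higher (24% were) and 3 did not pass the threshold. Cyp3a41b fell by 10.63, but was above background on only 1 of 4 cΔex3 arrays, against 3 of 3 control arrays. The size of its difference therefore rests on cΔex3 signals near background. Cyp17a1, a steroid hydroxylase, fell by 1.59, with levels of 3.78 on cΔex3 arrays and 5.38 on control arrays. The difference was −0.87 for Cyp17a1 with quantile normalisation and −6.92 for Cyp3a41b with normexp and quantile normalisation. Cyp2b9 and Cyp3a44 were above background on 0 of 4 cΔex3 arrays and 3 of 3 control arrays. Their control levels spread widely, from −5.29 to −0.75 for Cyp2b9 and from −4.87 to −2.10 for Cyp3a44, and no fold is given. The call for Cyp2b9 was lost with arrays of 1 mouse (limma, adjusted p = 0.0905). Cyp2b13 differed by −3.34 (limma, adjusted p = 0.0237), a call lost without control array 1 (−3.04), control array 3 (−2.38), cΔex3 array 1 (−3.30) or cΔex3 array 2 (−3.17). Only 2 of the 10 were above background on all cΔex3 arrays, against 11 of the 13 male-biased genes, and a test of the difference between the lists was not made.

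Mup transcription in liver lies downstream of pulsed growth hormone, its receptor and STAT5, together with the glucocorticoid receptor and liver transcription factors. Of 17 genes of this axis, 2 were higher on cΔex3 arrays (24% of all genes), 7 lower (29%) and 8 not past the threshold. The median was −0.84. The liver transcription factor Hnf4a had levels of 2.44, 2.58, −2.24 and −0.53 on cΔex3 arrays and 7.92, 7.91 and 7.52 on control arrays, a difference of −7.22 (SE 1.19; limma, adjusted p = 0.00234). Igf1, the secreted target of growth hormone, fell by 3.24. The 2 genes higher on cΔex3 arrays, named after their values had been seen, were Jak2, the kinase bound to the receptor, by 0.88 (limma, adjusted p = 0.0105) and Stat5a, a transcription factor it activates, by 0.93 (adjusted p = 0.0099). With arrays of 1 mouse they differed by 0.94 (adjusted p = 0.0672) and 1.08 (adjusted p = 0.0549). Ghr, the growth hormone receptor, stood at 5.42 ± 0.97 on cΔex3 arrays (SD, n = 4) and 5.69 ± 0.36 on control arrays (SD, n = 3), a difference of −0.27 ± 0.52 (SE; limma, adjusted p = 0.691) that turned to 0.60 with quantile normalisation and to 0.19 without cΔex3 array 4. Stat5b differed by −0.29 (limma, adjusted p = 0.335) and Nr3c1, the glucocorticoid receptor, by −0.21 (adjusted p = 0.546), turning to 0.09 and 0.41 with quantile normalisation. Cebpa, a transcription factor of liver and fat, differed by −0.55 (limma, adjusted p = 0.307), and Bcl6, a repressor that growth hormone silences, by −0.95 (adjusted p = 0.317). Zhx2, a repressor of Afp in adult mouse liver that also affects Mup levels, stood at −4.31 on cΔex3 arrays and −4.48 on control arrays (limma, adjusted p = 0.437), and turned to −0.43 with normexp and the 75th percentile (adjusted p = 0.0366).

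Glands are the other known source of Mup4 and Mup5. Of 12 lacrimal and salivary gland genes 8 were tested, with a median of −0.95. On cΔex3 arrays 1 was higher (24% of all genes were), 4 lower (29%) and 3 not past the threshold. The summed log2 level of the 8 was 3.17 to 5.01 on cΔex3 arrays and 5.68 to 6.04 on control arrays. Amy1, the amylase gene of salivary gland and liver, had levels of 4.16 ± 0.91 on cΔex3 arrays (SD, n = 4) and 5.82 ± 0.18 on control arrays (SD, n = 3). Its difference of −1.66 (limma, adjusted p = 0.0234) lost the call without control array 1 (−1.65), 2 (−1.58) or 3 (−1.76) or cΔex3 array 1 (−1.61), and with quantile normalisation (−0.89). Lpo, lactoperoxidase, fell by 1.76, Smr2, a submaxillary gland protein, by 0.94, a call lost with arrays of 1 mouse (limma, adjusted p = 0.0589). Aqp5, the water channel of gland cells, was higher by 2.65, and by 1.44 with normexp and the 75th percentile; its other probe differed by 0.81. Klk1, a glandular kallikrein, and Dcpp3, a salivary protein, differed by −1.92 (limma, adjusted p = 0.128) and −0.77 (adjusted p = 0.306), and without cΔex3 array 4 by −2.83 (adjusted p = 0.000700) and −1.22 (adjusted p = 0.0484). None of the 8 differed by as much as any of the 6 Mup genes. Whether gland transcripts have a part in the Mup differences was not tested.

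The Mup genes belong to the lipocalins, whose other members carry retinol, lipids and small hydrophobic molecules in many tissues. Of 16 others tested, 2 were higher on cΔex3 arrays (24% of all genes were), 9 lower (29%) and 5 not past the threshold. The median was −1.76. The lower ones named here are made by liver: Ambp, the precursor of α1-microglobulin, fell by 8.90, C8g, the γ chain of complement component C8, by 7.26, and Apom, an apolipoprotein that carries sphingosine phosphate, by 9.69. Rbp4, the retinol carrier of plasma, fell less, by 3.14, with levels of 6.17 ± 0.78 on cΔex3 arrays (SD, n = 4) and 9.31 ± 0.16 on control arrays (SD, n = 3), and it differed by −1.91 with quantile normalisation. Orm1 and Orm2, the acute-phase orosomucoids, fell by 3.79 and 4.24, and for Orm1 the call was lost without control array 1 (−3.62; limma, adjusted p = 0.0633) or 2 (−3.72; adjusted p = 0.059).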

How the data were processed

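The data are 7 one-colour Agilent mouse arrays, 1 per sample, from cells labelled as sorted dermal sheath. All 7 came from 1 slide in 1 scan and were read by Feature Extraction 10.7.1.1, per the file headers. The deposited processed intensity is background-subtracted, linear and not normalised between arrays, per the file headers. Raw median and background intensities, and flags per spot (other values, 0 or 1), came from the same deposited files. A series table of log2 values was deposited as well; its making is not given in the sources used here, its columns have medians of 7.407 to 7.413, and it served as an alternative.

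For levels, each array's 75th percentile of the log2 processed signal was subtracted. Of 59305 spots other than controls, 31531 took a gene name from the RefSeq table (GRCm38.p6) by accession. Spots of 1 probe were averaged, giving 55681 probes. A probe entered the test if 3 or more of the 7 arrays had it well above background (42463 probes), and the one with the highest mean over all arrays read a gene (18032 genes). The comparison used lmFit and eBayes of limma 3.58.1 (R 4.3.3) without covariates; p-values were two-sided, Benjamini-Hochberg adjusted over the 18032 genes, and called at 0.05. The call "fell" or "higher" always refers to this test, and means only lower or higher on cΔex3 arrays than on control arrays. The labels call the samples biological replicates, so the spread includes that between mice, and the number of arrays limits precision. On simulated data over 18032 genes, the fit recovered 8% of 100 genes changed 2-fold and 63% of 100 changed 4-fold, with 2 false calls. Far fewer genes were changed there than were called in the data (4333 higher and 5237 lower). The adjusted p depends on that share, so these rates do not give the recovery in this comparison.

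The Mup genes, the gene lists and the tests were chosen with earlier results of these data known. Named are all Mup genes, the 8 genes with the closest profile, up to 6 tested genes of each list with the highest control mean, with Alb, Afp, Ghr, Stat5b, Zhx2, Adipoq and Acta2 always, and the nearest genes beside the cluster; H19, on the same standing, had no probe by accession and was not analysed here. Of the adipocyte, dermal sheath, dermal papilla, keratinocyte and neighbour lists, most genes are given as counts only. One female-biased liver gene is not reported here by name. Normexp used the raw median intensity, since the raw mean planned for it was not used here. Replicate numbers did not pair the samples: deviations of same-numbered arrays correlated at −0.009, −0.001 and 0.018. Alternatives covered normalisation, background correction, filters, probe choice, replicate number or slide row as a block, pooled mice and leaving out each array.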

Additional observations from a re-analysis of the deposited data

Results flagged for a closer look

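In the cΔex3 group of 4 arrays, array 4 lay apart from the other 3 in 4 of the 75 probe profiles looked at, and arrays 1 to 3 in 0. Chance alone gives about 1 in 20 groups, so the number of profiles flagged is near what chance gives. The Mup genes were not among the profiles flagged. Cebpa was lowest on array 4, at 2.34 against 3.80 on the next array. Hp was lowest at 6.71 against 7.68, and Igf1 at 2.71 against 4.10. Slc46a2 was highest, at 4.37 against −3.24 on the next array.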

How the results depend on the processing

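For the 6 Mup genes the median difference stayed negative in all 20 alternatives, from −9.84 within slide row 1 to −5.82 within row 2; these within-row values were added after the data had been seen, and within row 1 Mup1, Mup3, Mup4, Mup5, Mup19 and Mup20 stood at −9.51, −11.06, −8.83, −12.21, −8.27 and −10.17. Leaving out 1 array gave medians of −7.38 to −5.99, and 6 of 6 genes stayed negative throughout. With the replicate number as a replicate block, which drops cΔex3 array 4, the Mup median was −7.28, and 4493 genes were higher and 4981 lower, against 4333 and 5237. Across the 18 alternatives other than the within-row ones, the counts ran from 2989 to 5093 higher and 3753 to 6320 lower. Counts within a row are not given, because each row left 1 group with 1 array. The median of all genes was −0.08, 0.11 with quantile normalisation and −0.23 with normexp and the 75th percentile, and the share of calls that were higher was 45.3%, 53.7% and 35.3%, and 54.2% in the authors' table. The count of lower female-biased genes was 1 with probes above background on all 7 arrays and 3 with arrays of 1 mouse, against 6, and of lower growth hormone axis genes 4 with that filter, against 7, where fewer genes were tested under the filter. Early liver genes that were higher numbered 1 with the replicate block and 1 to 2 without 1 array, against 2. Lower neighbours numbered 1 with quantile normalisation, array medians, normexp and quantile normalisation, the authors' table, the replicate block and the slide row as a block, 0 with arrays of 1 mouse and 1 to 2 without 1 array, against 2. Signs turned for Ghr (0.60, 0.63 and 0.63 with quantile normalisation, normexp and quantile normalisation and the authors' table, 0.19 with the replicate block, and −0.53 to 0.19 without 1 array), Nr3c1 (0.41, 0.35 and 0.35) and Stat5b (0.095, 0.073 and 0.074) in the same 3 settings, Zhx2 (−0.43 with normexp and the 75th percentile) and Dlk1 (0.49 with arrays of 1 mouse, −2.64 to 0.046 without 1 array); the cause was not tested.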
